A study of Caenorhabditis elegans with 36 samples.

Results

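The libraries labelled *ife-2* contained almost no germ line transcripts, so a somatic transcript whose level is unchanged takes up a larger share of their counts than in wild-type worms. The comparison described here asked which somatic genes rose by more than that share gain when the wild type was the one labelled 25 °C and not the one labelled 20 °C. It used 12 of the 36 libraries in the series: 6 labelled *ife-2* (genotype *ife-2*, temperature label 20 °C) and 6 of wild-type worms (genotype WT, temperature label 25 °C). A further 6 wild-type libraries labelled 20 °C are quoted only to show where the choice of wild type mattered. All libraries were made from whole worms given as prefertile young adults, although the extraction notes speak of day 1 adults, and the growth notes give 20 °C and OP50 bacteria for every sample. In the study, *ife-2* stands for the deletion allele *ok306* of a gene for a translation initiation factor that binds the mRNA cap, and wild type is the N2 strain. No transgene or drug was used in these groups. Genotype and temperature label change together between the groups, so their parts in any difference cannot be told apart. The labels do not say whether replicates were separate cultures, so p-values measure the spread between these libraries, which may be technical.

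A gene was tested when it had at least 10 estimated counts in at least 6 of the 12 libraries, which 16233 of 46093 listed genes did. The libraries held 38974887 to 49311828 counts in the *ife-2* group and 37391231 to 45514002 counts in the wild type labelled 25 °C, of which ribosomal RNA took 3.73% to 10.3% in the *ife-2* group and 4.15% to 10.3% in the wild type. Levels are given in CPM, counts scaled to a common library size, after rescaling on 84 somatic reference genes, and fold changes and adjusted p-values come from edgeR's quasi-likelihood test on the same scale. A gene was called higher or lower at an adjusted p-value below 0.01.

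The adult *C. elegans* germ line holds more nuclei than the rest of the animal and fills much of the body with RNA. Loss of germ cells is known to act on the soma, above all on the intestine, which stores fat, makes yolk and meets ingested bacteria. Known parts of that response are the FOXO transcription factor DAF-16, lysosomal lipases that release fatty acids, and nuclear hormone receptors that sense lipids. DAF-16 also switches on genes for antioxidant enzymes, metallothioneins and small heat shock proteins, and many of the same intestinal genes respond to food, pathogens and temperature.

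Most genes of the germ line, oocyte and sperm lists were nearly absent from the libraries labelled *ife-2*. *pgl-1*, which encodes a component of the P granules of germ cells, had a lowest, median and highest level of 0.0371, 0.226 and 0.525 CPM in the *ife-2* libraries, against 399, 463 and 658 CPM in the wild type labelled 25 °C. *oma-1*, an oocyte maturation factor, had 0.162, 0.331 and 0.640 CPM in the *ife-2* libraries, against 82.8, 141 and 267 CPM in the wild type labelled 25 °C. No library of one group came near the other. All 20 germ line genes, 14 of 16 oocyte and eggshell genes and 52 of 53 sperm genes were lower, with median log2 fold changes of -9.29, -9.21 and -6.86. The exceptions were the eggshell genes *perm-2* and *perm-4*, which were not called, and *ssp-37* of the sperm list, at 11.6 ± 3.06 CPM in the *ife-2* libraries and 6.14 ± 2.27 CPM in the wild type (SD, n = 6 each; edgeR adjusted p = 0.003). The oocyte and eggshell list still summed to 796 to 1586 CPM in the *ife-2* libraries, against 3316 to 13026 CPM in the wild type. In whole-worm RNA, fewer cells of a type and less RNA per cell cannot be told apart. The transcript of *ife-2* itself was not lower: it had 40.7, 44.7 and 53.2 CPM in the *ife-2* libraries, against 36.2, 39.9 and 47.0 CPM in the wild type labelled 25 °C (log2 fold change 0.22 ± 0.10 (SE), edgeR adjusted p = 0.079). The groups overlapped. A deletion need not lower the count of the rest of a transcript, so this gene-level count does not settle the label. Because the study gives another strain, *glp-1*, as the one with an ablated germ line, the samples are called here by their label only.

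The somatic reference measured how large the share gain was. Its 84 genes were 27 of muscle, 26 of neurons, 16 of epidermis and 15 of intestine. With no rescaling, their mean log2 CPM was 6.55 ± 0.170 (SD, n = 6) in the *ife-2* libraries and 6.09 ± 0.255 (SD, n = 6) in the wild type labelled 25 °C, a gain of 0.46 on the log2 scale or 1.37-fold. The *ife-2* libraries lay between 6.23 and 6.69, and the wild-type libraries between 5.80 and 6.41. The groups overlapped because *ife-2* replicate 2, at 6.23, was below replicates 4 and 5 of the wild type. After rescaling, the median log2 fold change was -0.05 for the muscle genes, -0.02 for the neuronal genes, 0.03 for the epidermal genes and 0.20 for the intestinal genes. These genes set the scale, so medians near 0 follow from the centering and only the differences between tissues are measured. *unc-54*, the major body wall muscle myosin heavy chain, averaged 5969 ± 893 CPM in the *ife-2* libraries and 6629 ± 358 CPM in the wild type labelled 25 °C (SD, n = 6 each; edgeR adjusted p = 0.21), and its log2 fold change of -0.15 became 0.62 under the scaling on all genes described below. *rab-3*, a synaptic vesicle GTPase, averaged 15.4 ± 1.39 CPM in the *ife-2* libraries and 14.9 ± 2.03 CPM in the wild type labelled 25 °C (SD, n = 6 each). The epidermal reference genes *lin-26* and *elt-1*, transcription factors of epidermal fate, were exceptions and fell by 1.99 and 1.94 on the log2 scale.

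**Figure D1:**
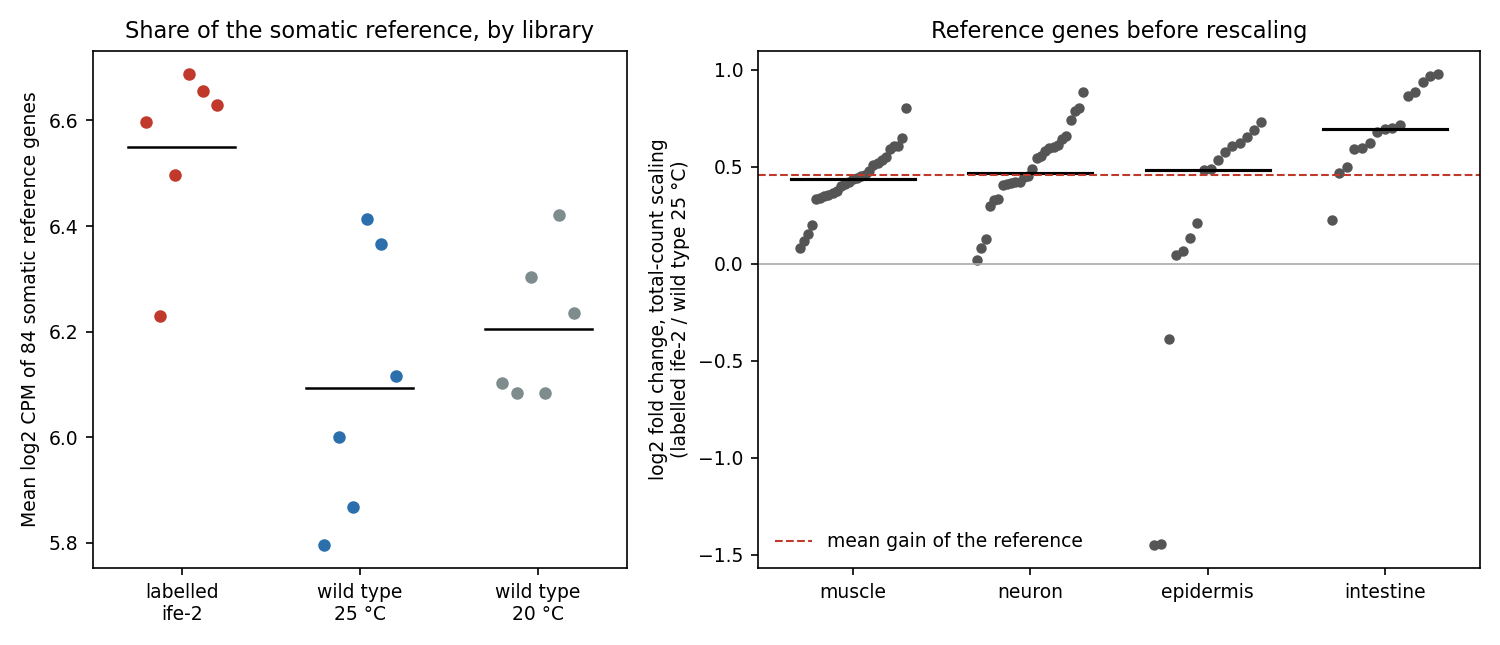
Left, mean log2 CPM of the 84 somatic reference genes in each library labelled *ife-2*, wild type 25 °C and wild type 20 °C (points) with the group mean (line), scaled on total counts only. Right, log2 fold change of each reference gene on total counts, by tissue, with the tissue median (black line) and the mean gain of 0.46 (dashed line). Most points of the 4 tissues lie around the dashed line, the intestinal genes above it, and *lin-26* and *elt-1* of the epidermis far below it.

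The wild-type libraries labelled 25 °C were not alike in genes that follow stage, and this touches the results below. The mean log2 level of 25 molting and cuticle genes was 3.66 to 4.92 in the *ife-2* libraries. In the wild type labelled 25 °C it was 3.86 and 4.19 in replicates 1 and 3, and 5.83 to 6.40 in replicates 2, 4, 5 and 6. The 6 vitellogenin genes, which encode yolk proteins of the adult intestine, showed the opposite order, with mean log2 levels of 13.4 to 14.2 in the *ife-2* libraries, 13.9 in replicates 1 and 3 of the wild type labelled 25 °C, and 12.2 to 13.1 in its other 4 replicates. Thus replicates 1 and 3 resembled the *ife-2* libraries in both lists, and the remaining 4 did not. With replicates 1 and 3 left out, 1740 genes were higher and 6329 lower. With replicates 2, 4, 5 and 6 left out, 782 were higher and 5722 lower.

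**Figure D2:**
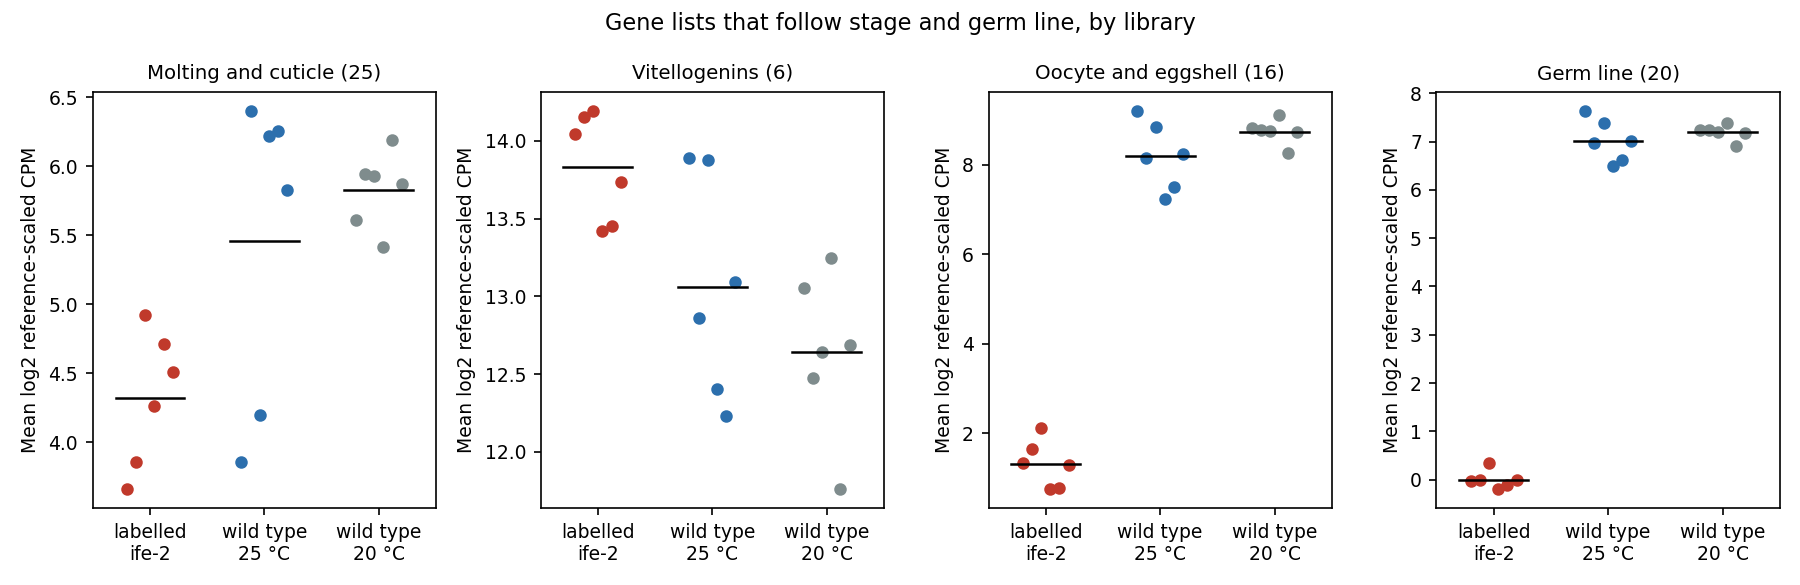
Mean log2 reference-scaled CPM of 4 gene lists in each library (points) with the group mean (line). Replicates 1 and 3 of the wild type labelled 25 °C are the 2 low points for molting and cuticle genes and the 2 high points for vitellogenins, while the germ line and oocyte lists separate all *ife-2* libraries from all wild-type libraries.

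Beyond the gain, 1435 genes rose (8.84% of all genes tested) and 7655 fell (47.2%). These shares are over all genes tested, germ line genes included, and 2528 genes fell at least 16-fold. A list of mostly somatic genes can therefore lie above 8.84% and below 47.2% for that reason alone. Among the genes that rose were 1328 protein-coding genes, 64 pseudogenes, 20 noncoding RNAs, 14 long intergenic noncoding RNAs and 1 microRNA. The rises were mostly small: 452 genes rose at least 2-fold, 103 at least 4-fold and 36 at least 8-fold, against 6680, 4646 and 3205 that fell as much. In 1004 genes (6.18%) every *ife-2* library was above every wild-type library, and in 7165 (44.1%) every *ife-2* library was below. The genes that rose made up 8.48% to 9.83% of all counts in the *ife-2* libraries and 3.45% to 4.38% in the wild type labelled 25 °C. The genes that fell made up 24.1% to 26.4% in the *ife-2* libraries and 50.3% to 58.0% in the wild type. Scaling decides this balance. Under the trimmed mean of M-values (TMM), which centers on the bulk of all genes and adds 0.77 to the log2 fold change of the median gene (1.70-fold), 6991 genes (43.1%) were called higher and 6227 (38.4%) lower, so that 52.9% of calls were higher, against 15.8% with the somatic reference.

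Among protein-coding genes with at least 10 CPM in the *ife-2* libraries and no overlap between the groups, *irld-35*, which encodes a protein with the ligand-binding L domain of the insulin receptor family, rose most. It had a lowest, median and highest level of 9.65, 12.7 and 15.99 CPM in the *ife-2* libraries, against 0.218, 0.389 and 0.505 CPM in the wild type labelled 25 °C (log2 fold change 5.11 ± 0.22 (SE), edgeR adjusted p = 9.8e-12). *irg-5*, an infection response gene induced by bacterial pathogens, had 54.6, 75.7 and 131 CPM in the *ife-2* libraries, against 3.68, 4.91 and 6.38 CPM in the wild type (4.09 ± 0.25, adjusted p = 5.1e-10). *asm-3*, an acid sphingomyelinase that splits sphingomyelin into ceramide, had 19.7, 39.4 and 112 CPM in the *ife-2* libraries, against 1.07, 2.83 and 5.98 CPM in the wild type (3.97 ± 0.49, adjusted p = 2.9e-06). No overlap was a condition for naming these 3 genes, and the widest spread within the *ife-2* libraries was in *asm-3*. *irld-35* stands in the annotation under 2 identifiers, and counts estimated for such copies could be shared unevenly between them: the copy given above is WBGene00021222, and WBGene00018917 averaged 6.41 CPM in the *ife-2* libraries and 0.143 CPM in the wild type.

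The *pud* genes, named for proteins up-regulated in *daf-2* insulin receptor mutants, rose as a block. *pud-2.2* had 1210, 1618 and 2609 CPM in the *ife-2* libraries, against 201, 285 and 412 CPM in the wild type labelled 25 °C (2.503 ± 0.20 (SE), edgeR adjusted p = 1.3e-08). *pud-1.1* averaged 1319 ± 372 CPM in the *ife-2* libraries and 234 ± 68.1 CPM in the wild type (SD, n = 6 each). *pud-3* and *pud-4* rose 10.7-fold and 9.91-fold. In absolute terms *pud-2.2* gained more CPM than any other gene of the pool named above, and *clec-209*, a C-type lectin, was also among the most abundant risers, with 718, 920 and 1251 CPM in the *ife-2* libraries against 97.6, 134 and 151 CPM in the wild type. The other genes that gained most in absolute level were cuticle collagens *col-42*, *col-98* and *col-103*, the acid phosphatase *acp-6*, *clec-63*, *gfi-1* and *bcf-1*. *bcf-1* lost its call in most fits with 1 library fewer (log2 fold change 0.28), and the calls of the 3 collagens, *acp-6* and *gfi-1* were lost when replicates 2, 4, 5 and 6 of the wild type were left out.

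Several of the largest rises lay side by side on chromosome V. *pud-2.2*, *pud-3*, *pud-4* and *pud-1.1* were between positions 2323014 and 2330930 of the WBcel235 assembly, the first *irld-35* copy was at 2348215 to 2350325, *clec-209* at 2351676 to 2352932, and the uncharacterized gene *F56A4.3* at 2453414 to 2456147, next to the second *irld-35* copy at 2456176 to 2458286. Of the 15 genes with the largest rises, 10 were on chromosome V and 6 in the 200 kb from 2300000 to 2500000. Chromosome V held 3260 of the 16233 tested genes and 465 of the 1435 that rose. The *pud* genes among the 6 are close copies, so they are not independent counts. In that window, which was chosen after its values were seen, 17 of 21 tested genes rose and 3 fell. *F56A4.3* averaged 48.2 ± 9.12 CPM in the *ife-2* libraries and 4.66 ± 1.21 CPM in the wild type labelled 25 °C (SD, n = 6 each), and 2.07 ± 0.904 CPM in the wild type labelled 20 °C. Against the wild type labelled 20 °C, the first *irld-35* copy, *clec-209* and *F56A4.3* differed by 5.25, 4.45 and 4.53 on the log2 scale and *pud-2.2* by 1.70. The rises of these neighbors were therefore seen against either wild type.

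Other genes with large rises were *sysm-1* and *F38B6.6* (3.41 and 3.13 on the log2 scale), *dhs-26*, a short-chain dehydrogenase (2.88), *Y6G8.2* (3.26) and *F45D11.16* (2.65). *F38B6.6* averaged 19.3 ± 4.79 CPM in the *ife-2* libraries, 2.21 ± 0.277 CPM in the wild type labelled 25 °C and 2.29 ± 0.340 CPM in the wild type labelled 20 °C (SD, n = 6 each). *Y6G8.2* averaged 14.8 ± 3.23 CPM in the *ife-2* libraries, 1.53 ± 0.247 CPM in the wild type labelled 25 °C and 11.04 ± 0.694 CPM in the wild type labelled 20 °C. *F45D11.16* averaged 110 ± 75.1 CPM in the *ife-2* libraries, 17.6 ± 8.22 CPM in the wild type labelled 25 °C and 94.3 ± 11.8 CPM in the wild type labelled 20 °C. *Y6G8.2* and *F45D11.16* are examples of a pattern taken up below, in which the wild type labelled 25 °C was low and the wild type labelled 20 °C was close to the *ife-2* libraries.

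**Figure D3:**
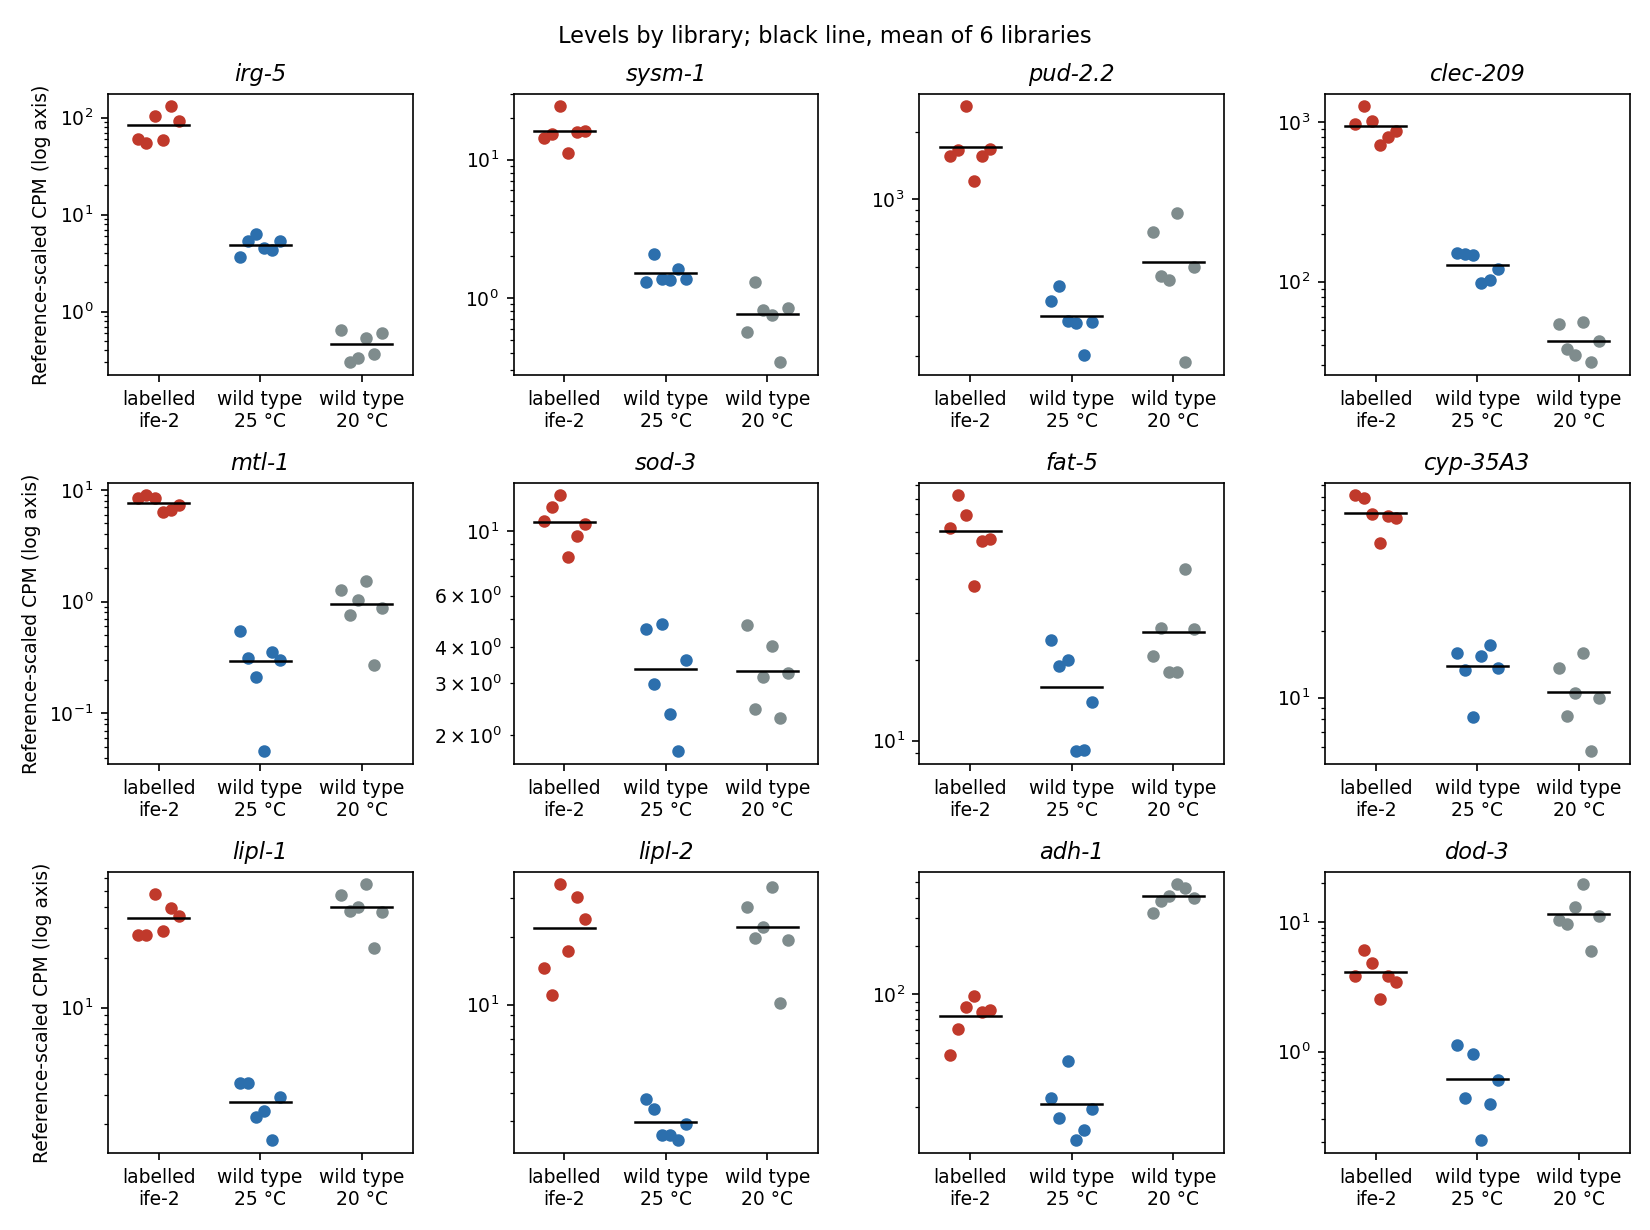
Reference-scaled CPM of 12 genes (log axis) in each library labelled *ife-2*, wild type 25 °C and wild type 20 °C, with the group mean (line). All 12 genes separate the *ife-2* libraries from the wild type labelled 25 °C, which the rules for naming them required. *lipl-1* and *lipl-2* overlap with the wild type labelled 20 °C, and *adh-1* and *dod-3* are highest there.

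Of 17 tested DAF-16 target genes taken from general knowledge, 13 rose (76.5%) and 1 fell (5.88%), against 8.84% and 47.2% of all genes. The median log2 fold change was 1.22, against -0.50 over all genes tested. This short list was chosen with earlier results of these data known. In the study's longer DAF-16 list 304 of 1177 genes rose (25.8%) and 149 fell (12.7%), with a median of 0.20. The count of higher genes in the short list was 11 to 13 when 1 library was left out. It was 8 when replicates 2, 4, 5 and 6 of the wild type were left out, against 782 of 14022 over all genes. *mtl-1*, a metallothionein that binds heavy metals, had 6.34, 7.803 and 8.93 CPM in the *ife-2* libraries, against 0.0458, 0.308 and 0.541 CPM in the wild type labelled 25 °C (4.73 ± 0.29 (SE), edgeR adjusted p = 6.8e-10). *sod-3*, a mitochondrial manganese superoxide dismutase, had 8.15, 10.7 and 13.3 CPM in the *ife-2* libraries, against 1.75, 3.30 and 4.79 CPM in the wild type (1.69 ± 0.22, adjusted p = 5e-06). Both genes were higher in all 6 *ife-2* libraries than in any of the 6 wild-type libraries. That separation was a condition for the genes named from each list. *fat-5*, a palmitoyl-CoA desaturase, rose 3.84-fold, and the catalases *ctl-1* and *ctl-2* rose 1.59-fold and 1.497-fold. The single gene of the short list that fell was the lipase *lipl-4*, a call that was lost in most fits that left out 1 library.

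The choice of wild type moved the short DAF-16 target list. Its median log2 fold change was 1.22 against the wild type labelled 25 °C and -0.24 against the wild type labelled 20 °C, while over all genes the medians were -0.50 and -0.74. Over all genes, 14% were called higher and 58.1% lower against the wild type labelled 20 °C, and between the wild types 6.47% were higher and 9.39% lower at 25 °C than at 20 °C. These comparisons share libraries, so they are not independent. *mtl-1*, *sod-3* and *fat-5* were higher against either wild type, with log2 fold changes of 3.01, 1.69 and 1.25 against the wild type labelled 20 °C. In contrast, *adh-1*, an alcohol dehydrogenase listed in older work as *sodh-1*, averaged 73.7 ± 19.5 CPM in the *ife-2* libraries, 20.7 ± 9.54 CPM in the wild type labelled 25 °C and 408 ± 57.9 CPM in the wild type labelled 20 °C (SD, n = 6 each). It was thus 1.84 higher on the log2 scale against one wild type (edgeR adjusted p = 1.7e-05) and 2.47 lower against the other (-2.47, adjusted p = 4.1e-10). *dod-3*, a gene downstream of DAF-16, averaged 4.11 ± 1.22 CPM in the *ife-2* libraries, 0.619 ± 0.350 CPM in the wild type labelled 25 °C and 11.7 ± 4.57 CPM in the wild type labelled 20 °C. *hsp-16.41*, a small heat shock protein, averaged 4.17 ± 1.67 CPM in the *ife-2* libraries, 0.957 ± 0.493 CPM in the wild type labelled 25 °C and 14.1 ± 3.95 CPM in the wild type labelled 20 °C. The wild type labelled 25 °C was the lowest group for each of these genes and the wild type labelled 20 °C the highest, with the *ife-2* libraries in between.

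Lysosomal acid lipases of the intestine release fatty acids from stored fat and are induced by fasting. Of 7 tested, *lipl-1*, *lipl-2*, *lipl-3* and *lipl-5* rose in the comparison with the wild type labelled 25 °C (57.1%, against 8.84% of all genes). *lipl-1* had 27.2, 32.2 and 47.9 CPM in the *ife-2* libraries, against 1.60, 2.66 and 3.53 CPM in the wild type labelled 25 °C (3.68 ± 0.22 (SE), edgeR adjusted p = 4.7e-10). In the wild type labelled 20 °C *lipl-1* had 22.8, 38.9 and 55.0 CPM, which overlapped with the *ife-2* libraries (log2 fold change -0.22, edgeR adjusted p = 0.28). *lipl-2* was at 22.1 ± 9.28 CPM in the *ife-2* libraries, 2.95 ± 0.516 CPM in the wild type labelled 25 °C and 22.2 ± 7.93 CPM in the wild type labelled 20 °C (SD, n = 6 each). *lipl-3* averaged 3.92 ± 0.775 CPM in the *ife-2* libraries, 1.22 ± 0.435 CPM in the wild type labelled 25 °C and 13.1 ± 2.92 CPM in the wild type labelled 20 °C. *lipl-5* was the exception, at 629 ± 116 CPM in the *ife-2* libraries, 270 ± 50.9 CPM in the wild type labelled 25 °C and 346 ± 38.1 CPM in the wild type labelled 20 °C. It was higher in the *ife-2* libraries than in either wild type (log2 fold changes 1.22 and 0.86). *lipl-4*, the lipase best known from germ line loss, averaged 0.661 ± 0.104 CPM in the *ife-2* libraries, 1.12 ± 0.446 CPM in the wild type labelled 25 °C and 1.94 ± 0.452 CPM in the wild type labelled 20 °C.

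Genes of lipid binding and synthesis moved in both directions. *far-3*, a fatty acid and retinol binding protein, averaged 15.5 ± 4.73 CPM in the *ife-2* libraries and 3.82 ± 0.916 CPM in the wild type labelled 25 °C (2.03 ± 0.22 (SE), edgeR adjusted p = 5.9e-07). In its list 5 of 17 genes rose (29.4%, against 8.84% of all genes). The number was 7 without replicate 1 of the wild type, and 3 without *ife-2* replicate 1, 2 or 6 or without replicate 4, 5 or 6 of the wild type. *acs-22*, a fatty acid transport protein of the acyl-CoA synthetase family, and *dgat-2*, a diacylglycerol acyltransferase that makes storage fat, rose 1.52-fold and 1.46-fold. Among 16 desaturases and elongases *fat-5* alone rose (6.25%), and 5 fell (31.25%), both below the 8.84% and 47.2% of all genes. *fat-7*, a stearoyl-CoA desaturase, was lower by 2.47 on the log2 scale, at 24.6 ± 11.9 CPM in the *ife-2* libraries and 136 ± 58.6 CPM in the wild type (SD, n = 6 each). *acox-1.2*, a peroxisomal acyl-CoA oxidase, rose 2.02-fold.

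Of 15 immune effector genes 9 rose (60%) and 1 fell (6.67%), against 8.84% and 47.2% of all genes. The median log2 fold change was 0.89, against -0.50 over all genes. This short list too was chosen with earlier results of these data known. In the study's longer innate immunity list 73 of 282 genes rose (25.9%) and 59 fell (20.9%), with a median of 0.16. Besides *irg-5*, *sysm-1*, another gene induced by pathogens, had 11.2, 15.6 and 24.3 CPM in the *ife-2* libraries, against 1.30, 1.38 and 2.09 CPM in the wild type labelled 25 °C (3.41 ± 0.19 (SE), edgeR adjusted p = 2.4e-10). *irg-4* averaged 65.4 ± 12.2 CPM in the *ife-2* libraries and 25.9 ± 2.59 CPM in the wild type, and *irg-1* averaged 36.0 ± 4.09 CPM in the *ife-2* libraries and 13.8 ± 0.897 CPM in the wild type (SD, n = 6 each). *dod-22* and *dod-24*, secreted proteins that respond to pathogens, rose 2.73-fold and 1.85-fold. For the short immune list the 25 °C wild type was not the low group. In the wild type labelled 20 °C *irg-5* averaged 0.465 ± 0.152 CPM and *irg-4* averaged 7.54 ± 1.72 CPM. The median log2 fold change of the short list against the wild type labelled 20 °C was 1.19. The transcripts of *pmk-1*, the p38 kinase of this pathway, and *zip-2*, the transcription factor behind *irg-1*, were not called, at log2 fold changes of -0.17 and 0.16, and *atf-7*, a transcription factor downstream of *pmk-1*, fell by 1.07.

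**Figure D4:**
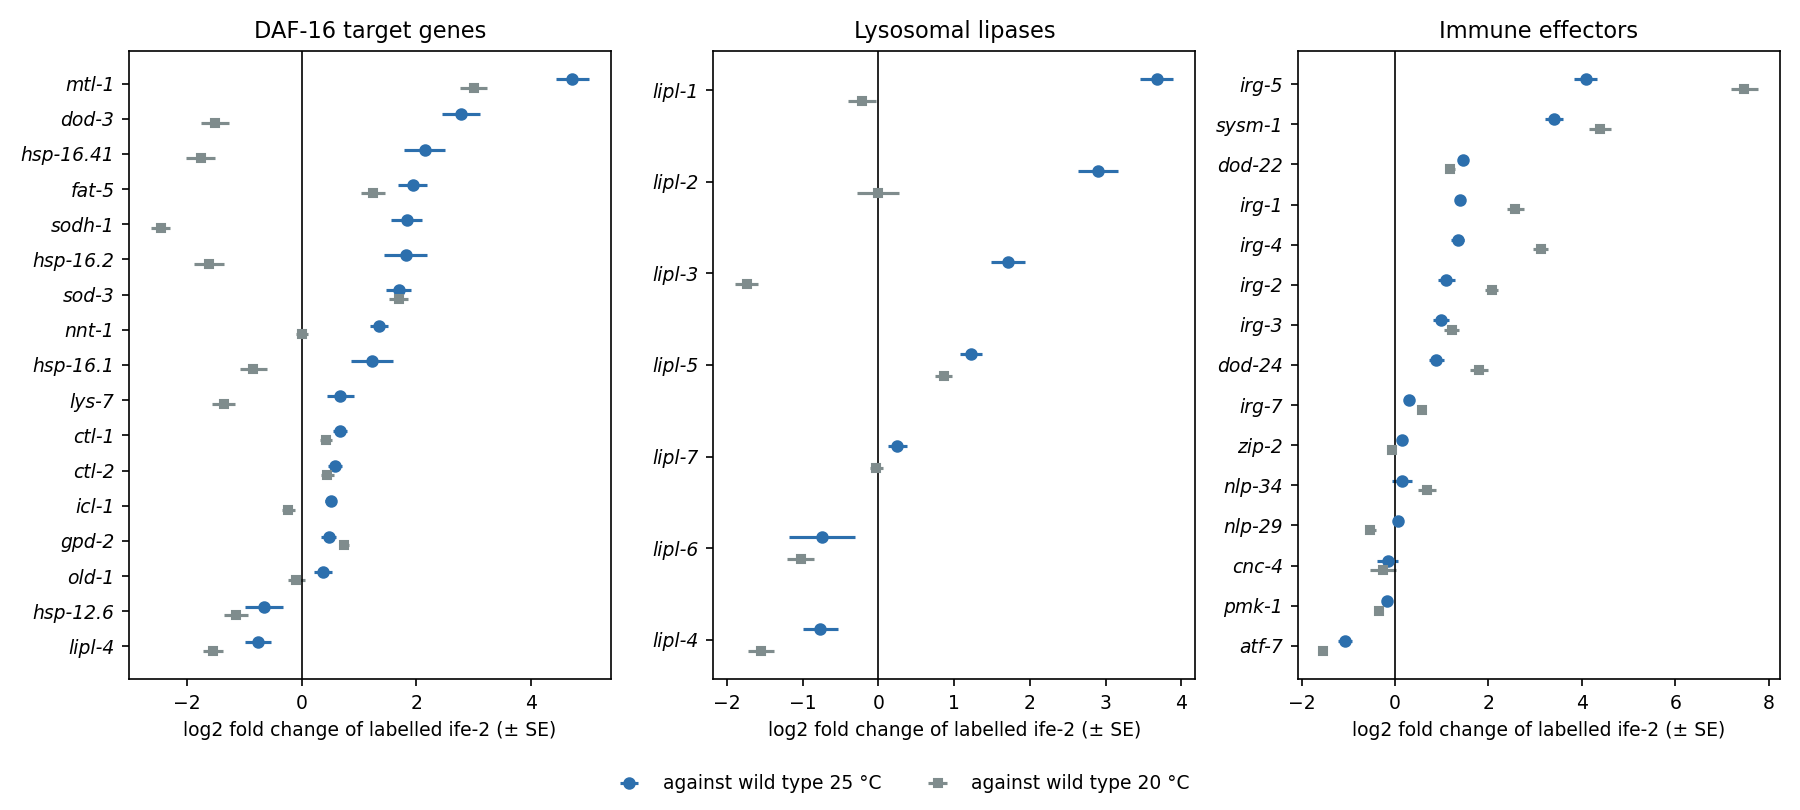
Log2 fold change (± SE) of the tested DAF-16 target genes, lysosomal lipases and immune effectors in the libraries labelled *ife-2*, against the wild type labelled 25 °C (circles) and the wild type labelled 20 °C (squares). Most immune effectors that rose lie to the right of 0 for either wild type, whereas genes such as *dod-3*, *sodh-1* (the *adh-1* of the text), *hsp-16.2*, *hsp-16.41* and *lipl-3* lie on opposite sides of 0.

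Families of detoxification enzymes had more risers than the 8.84% of all genes, a background that includes germ line genes. Of 61 cytochromes P450, 23 rose (37.7%) and 6 fell. *cyp-35A3*, an intestinal P450 induced by foreign compounds, had 49.4, 66.0 and 81.1 CPM in the *ife-2* libraries, against 8.18, 14.5 and 17.2 CPM in the wild type labelled 25 °C (2.28 ± 0.18 (SE), edgeR adjusted p = 9.8e-09). *cyp-37B1* rose 4.27-fold against the wild type labelled 25 °C but averaged 9.22 ± 1.66 CPM in the *ife-2* libraries and 9.89 ± 1.64 CPM in the wild type labelled 20 °C. Of 41 glutathione S-transferases 14 rose, led by *gst-29* (3.72-fold), and of 63 UDP-glucuronosyltransferases 17 rose, among them *ugt-43* (3.79-fold). With 1 library left out, 21 to 26 P450 genes, 14 or 15 glutathione S-transferases and 11 to 19 UDP-glucuronosyltransferases were higher (the lowest without *ife-2* replicate 6). Against replicates 1 and 3 of the wild type alone, 14, 8 and 9 were higher, and 782 of 14022 over all genes. The medians of the 3 families were small, at 0.30, 0.29 and 0.31 on the log2 scale. Against the wild type labelled 20 °C they were -0.24, 0.17 and 0.26. Over all genes the medians were -0.50 and -0.74 against the wild types labelled 25 °C and 20 °C.

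C-type lectins, secreted proteins that bind sugars and often respond to bacteria, had 48 of 136 members higher (35.3%) and 21 lower, and the number lower was 11 to 15 whenever 1 wild-type library was left out. The set of genes tested changed as well. A gene counted in the wild type alone needs all 6 of its libraries to be tested. Without 1 of them, 14662 to 14714 genes were tested in place of 16233. How much of the drop this makes up was not tested. *clec-67* averaged 56.9 ± 5.13 CPM in the *ife-2* libraries and 13.3 ± 3.12 CPM in the wild type labelled 25 °C (SD, n = 6 each), a 4.26-fold rise. Of 34 lysozymes and saposins 8 rose (23.5%, against 8.84% of all genes). Among them was *spp-8*, at 121 ± 15.8 CPM in the *ife-2* libraries and 49.3 ± 6.87 CPM in the wild type. The F-box A family, adaptors of ubiquitin ligases that number far more in nematodes than in other animals, had 49 of 117 members higher (41.9%) and 27 lower, and the number lower was 9 or 10 whenever 1 wild-type library was left out, with the same change in the genes tested. *fbxa-158* averaged 1.097 ± 0.194 CPM in the *ife-2* libraries and 0.167 ± 0.143 CPM in the wild type labelled 25 °C, and 0.991 ± 0.237 CPM in the wild type labelled 20 °C. Of 197 nuclear hormone receptors 44 rose (22.3%) and 23 fell (11.7%), against 8.84% and 47.2% of all genes. Without *ife-2* replicate 1 the number that rose was 27. Against replicates 1 and 3 of the wild type alone, 26 C-type lectins, 29 F-box A genes and 17 nuclear hormone receptors were higher. Over all genes that fit gave 782 of 14022 higher. Median log2 fold changes of these families were 0.31, 0.32 and 0.15 against the wild type labelled 25 °C. They were -0.05, 0.13 and -0.18 against the wild type labelled 20 °C. *nhr-74* rose 3.44-fold at a low level of 4.76 ± 1.65 CPM in the *ife-2* libraries and 1.40 ± 0.440 CPM in the wild type labelled 25 °C.

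**Figure D5:**
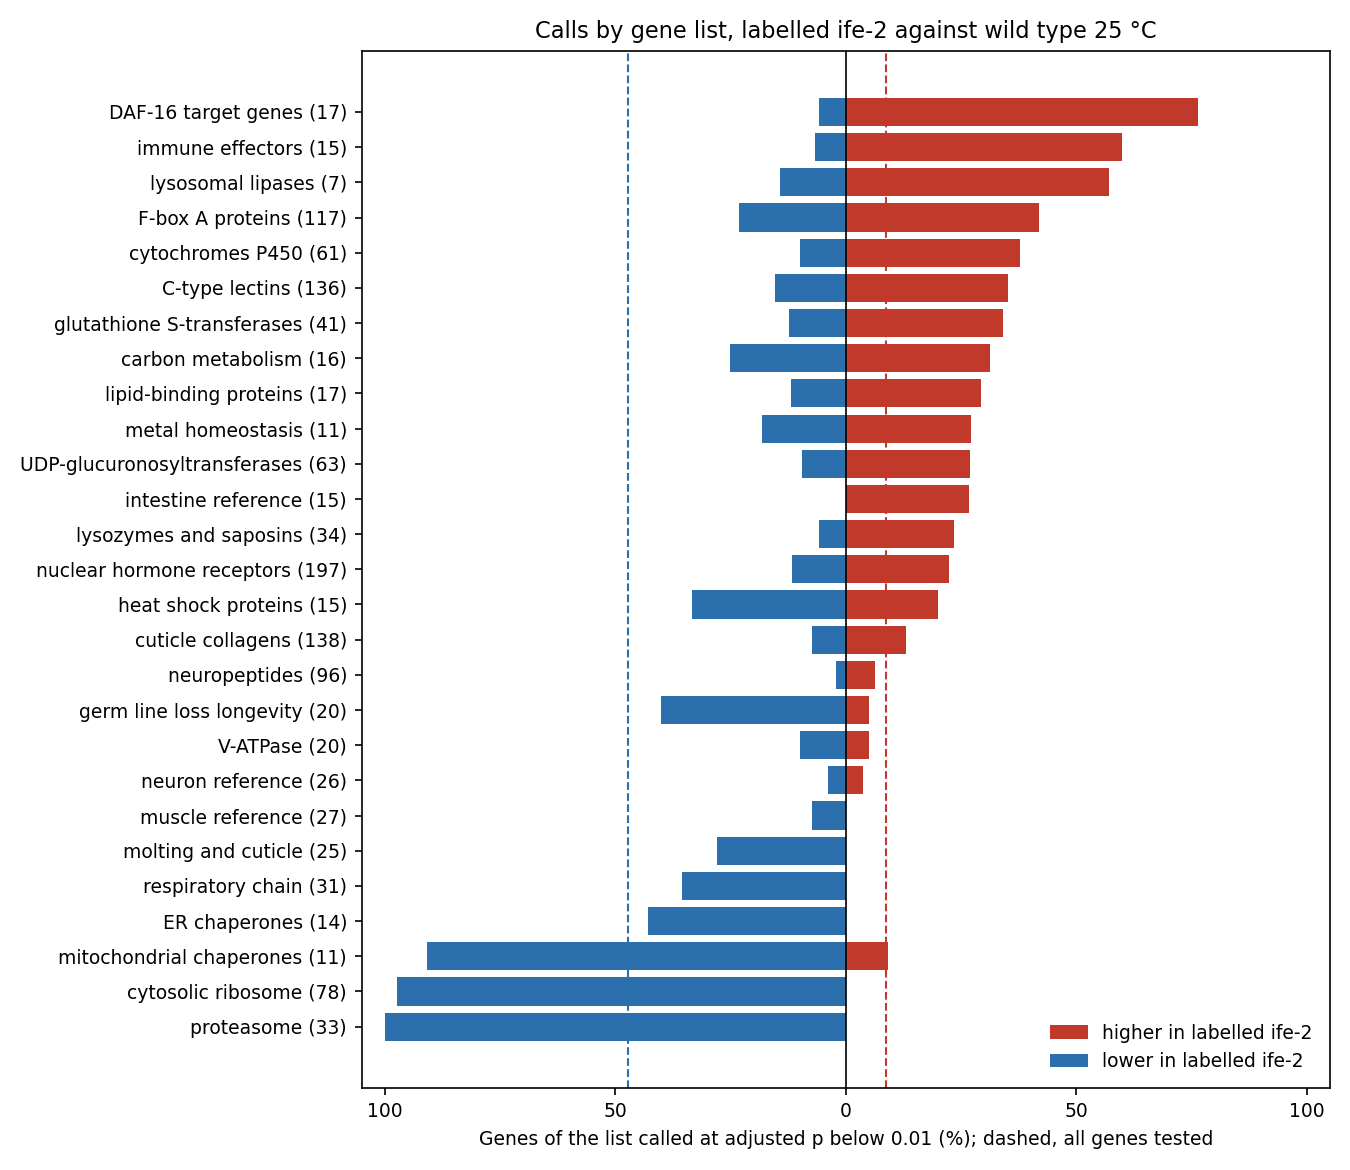
Percent of tested genes in each list that were called higher (right) or lower (left) in the libraries labelled *ife-2* against the wild type labelled 25 °C, with the number tested in parentheses. Dashed lines give 8.84% higher and 47.2% lower over all genes tested, and lists of DAF-16 targets, immune effectors and lipases reach furthest to the right.

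Of the 15 intestinal reference genes 4 rose (26.7%, against 8.84% of all genes) and 11 were not called. Those that rose included *ges-1*, the gut esterase, at 64.3 ± 6.89 CPM in the *ife-2* libraries and 45.7 ± 1.76 CPM in the wild type labelled 25 °C (SD, n = 6 each), and *vha-6*, the V-ATPase subunit of the apical gut membrane, at 683 ± 61.2 CPM in the *ife-2* libraries and 505 ± 51.02 CPM in the wild type. *elt-2*, the GATA factor that defines the intestine, was not called (0.22 ± 0.09 (SE), edgeR adjusted p = 0.05). When the intestinal genes alone set the scale, 714 genes in place of 1435 were called higher. Larger rises such as *irg-5*, *lipl-1* and *mtl-1* kept their calls under that scale. *nid-1*, the basement membrane protein nidogen, and *nlp-40*, a neuropeptide released by the intestine to time defecation, rose 1.48-fold and 1.59-fold. Of 96 neuropeptide genes 6 rose (6.25%), or 3 to 6 with 1 library left out (3 without *ife-2* replicate 1, 2 or 3 or without replicate 3, 4, 5 or 6 of the wild type), which is near or below the background.

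None of the 6 yolk genes passed the test by edgeR or by DESeq2, although 5 had an unadjusted edgeR p below 0.05. *vit-2* had 17468, 22996 and 29791 CPM in the *ife-2* libraries, against 8407, 12728 and 22927 CPM in the wild type labelled 25 °C (0.66 ± 0.25 (SE), edgeR adjusted p = 0.031). *vit-6* had 23116, 31288 and 39016 CPM in the *ife-2* libraries, against 11918, 17478 and 35946 CPM in the wild type. The groups overlapped in both genes, since the wild-type libraries differed among themselves. Without replicate 1 of the wild type 3 of the 6 yolk genes were higher, and without replicates 1 and 3 all 6 were, with log2 fold changes of 1.11 for *vit-2* and 1.03 for *vit-6*. Against replicates 1 and 3 alone the values were 0.03 and -0.11. The same libraries decided the molting list. In the full comparison 7 of its 25 genes were lower (28%, below the 47.2% of all genes). The number was 21 without replicate 1, 18 without replicate 3 and 23 without both. Leaving out any other library but *ife-2* replicate 3 gave 2 to 4, with 2 without replicate 2 of the wild type. *nhr-23*, the nuclear hormone receptor that drives molting cycles, was lower in every such comparison. It averaged 1.98 ± 0.471 CPM in the *ife-2* libraries and 58.2 ± 12.7 CPM in the wild type labelled 25 °C (SD, n = 6 each). The groups did not overlap in this gene, whereas replicates 1 and 3 of the wild type resembled the *ife-2* libraries in the molting list. *nhr-23* thus did not follow that list, and whether its fall lay in the germ line or the soma was not tested. Of 138 collagens 18 rose and 10 fell, and 29 rose without replicate 1 of the wild type but 9, 8 and 9 without replicates 4, 5 and 6. The number of collagens that fell was 3 without replicate 2 of the wild type and 16 without replicate 3, and 4 to 6 without *ife-2* replicate 1, 3 or 6 or without replicate 4, 5 or 6 of the wild type.

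Among housekeeping lists, all 33 proteasome genes and all 69 mitochondrial ribosomal protein genes were lower, with medians of -1.95 and -1.60 on the log2 scale, as were 76 of 78 cytosolic ribosomal protein genes with a median of -1.01. Under TMM 19 of the cytosolic ribosomal protein genes were lower and 2 higher. Of 31 respiratory chain genes 11 were lower (35.5%, below the 47.2% of all genes), with a median of -0.34 that became 0.44 under TMM. The clearest falls among protein-coding genes that still had at least 10 CPM in the *ife-2* libraries were *cgh-1*, an RNA helicase of germ granules, *top-2*, topoisomerase II, *hmg-12*, *ife-3* and *asb-1*, a germ line subunit of the mitochondrial ATP synthase. *cgh-1* had 42.1, 44.2 and 48.0 CPM in the *ife-2* libraries, against 938, 1361 and 2444 CPM in the wild type labelled 25 °C, a 35.2-fold lower mean. *ife-3*, the cap-binding factor nearest in kind to the general factor of other animals, averaged 13.1 ± 1.24 CPM in the *ife-2* libraries and 265 ± 86.1 CPM in the wild type (SD, n = 6 each).

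Mitochondrial chaperones fell and some small heat shock proteins rose. Of 11 genes of mitochondrial protein folding, import and stress signaling 10 were lower (90.9%, against 47.2% of all genes). The other, *dve-1*, a homeodomain protein, was higher (1.29-fold). *hsp-6*, the mitochondrial HSP70 used as the reporter of the mitochondrial unfolded protein response, had 199 ± 12.5 CPM in the *ife-2* libraries and 711 ± 95.04 CPM in the wild type labelled 25 °C (-1.84 ± 0.10 (SE), edgeR adjusted p = 2.5e-10). *hsp-60* was lower by 2.07 and the cytosolic HSP70 gene *hsp-1* by 2.35 on the log2 scale. The median of the 11 genes was -1.36, beside -1.95 for the proteasome and -1.60 for the mitochondrial ribosome. Under TMM it was -0.58, with 8 genes lower. Whether these falls lay in the germ line or the soma was not tested. Among 15 heat shock genes *hsp-16.1*, *hsp-16.2* and *hsp-16.41* rose (20%) and 5 fell (33.3%), against 8.84% and 47.2% of all genes. The number that rose was 2 to 5 with 1 library left out, with 5 without replicate 3 of the wild type and 2 without most others. *hsp-16.2* had 1.87, 3.37 and 5.01 CPM in the *ife-2* libraries, against 0.252, 0.871 and 1.90 CPM in the wild type labelled 25 °C (1.81 ± 0.38 (SE), edgeR adjusted p = 0.00062). The highest wild-type library was slightly above the lowest *ife-2* library. Against the wild type labelled 20 °C, where *hsp-16.2* averaged 10.1 ± 3.24 CPM (SD, n = 6), the direction turned (log2 fold change -1.62), as it did for *hsp-16.41* (-1.76). These genes have near-identical neighbors, and estimated counts may be divided between the copies with error.

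The study follows 8 stress pathways through 1 target gene each, and these genes were split. *sod-3*, *hsp-16.2*, *gst-4* and *Y9C9A.8* rose, and *hsp-6*, *hsp-4*, *nhr-57* and *trx-2* fell. *gst-4*, a glutathione S-transferase controlled by SKN-1, had 29.6, 34.9 and 40.9 CPM in the *ife-2* libraries, against 16.36, 20.5 and 23.8 CPM in the wild type labelled 25 °C (0.76 ± 0.12 (SE), edgeR adjusted p = 3.4e-05), and the groups did not overlap. *Y9C9A.8*, the innate immunity target, rose 1.81-fold with overlapping groups. *hsp-4*, the ER chaperone BiP, was 2.48-fold lower, at 171 ± 21.5 CPM in the *ife-2* libraries and 423 ± 68.0 CPM in the wild type. *trx-2*, mitochondrial thioredoxin, was 2.48-fold lower and *nhr-57*, the hypoxia target, 2.29-fold lower, but their log2 fold changes were 0.01 and 0.11 under upper-quartile scaling. Whether the falls of *hsp-6*, *hsp-4*, *trx-2* and *nhr-57* lay in the germ line or the soma was not tested. The study's longer lists gave shares above the background of 8.84% higher for DAF-16 (304 of 1177, 25.8%), innate immunity (73 of 282, 25.9%), the mitochondrial unfolded protein response (100 of 339, 29.5%) and antioxidant genes (19 of 70, 27.1%). The share was smaller for the cytosolic unfolded protein response (270 of 1593, 16.9%). Shares for the hypoxia factor HIF-1 (6 of 49, 12.2%) and SKN-1 (11.7% of 981) were near the background. With 1 library left out, 232 to 294, 4 to 6 and 102 to 123 genes of these lists were higher. For the ER unfolded protein response the share was 8.72% (13 of 149), close to the background. The shares that fell were below the 47.2% of all genes for DAF-16 (149 genes, 12.7%), innate immunity (59, 20.9%), the mitochondrial response (79, 23.3%) and antioxidant genes (20, 28.6%). They were closer to it for SKN-1 (40.5%), HIF-1 (40.8%), the cytosolic response (41.7%) and the ER response (73 genes, 48.99%).

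Of 20 genes for regulators of germ line longevity 8 fell (40%) and 1, the lipid synthesis factor *sbp-1*, rose (5%, 1.29-fold with overlapping groups). Both shares were somewhat below those of all genes, 47.2% lower and 8.84% higher. With 1 library left out, no gene of the list was called higher by edgeR in 7 of 12 fits, those without *ife-2* replicate 1, 2, 3 or 6 or without replicate 2, 4 or 6 of the wild type. *daf-16* had 71.9, 89.2 and 101 CPM in the *ife-2* libraries, against 124, 150 and 214 CPM in the wild type labelled 25 °C (-0.89 ± 0.15 (SE), edgeR adjusted p = 5.6e-05), and the groups did not overlap. *skn-1*, the oxidative stress regulator, was 2.23-fold lower and *hsf-1*, the heat shock transcription factor, 5.16-fold lower. These are transcripts that germ cells also contain, and whether the soma changed was not tested in whole-worm RNA. Under TMM the log2 fold change of *daf-16* was -0.10 and no longer called, and under upper-quartile scaling those of *daf-16* and *skn-1* were 0.43 and 0.17. Argonautes of the RNA interference pathway differed in direction. *sago-1* rose 1.66-fold, at 102 ± 6.78 CPM in the *ife-2* libraries and 61.4 ± 3.15 CPM in the wild type labelled 25 °C (SD, n = 6 each). *ergo-1* was 6.08-fold lower, and whether that fall lay in the germ line or the soma was not tested. *sago-2* rose 1.43-fold with overlapping groups, and its call was lost without replicate 6 of the wild type (log2 fold change 0.49).

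Metal, autophagy and sugar genes added a few risers. *ftn-1*, intestinal ferritin, had 1.91, 2.90 and 3.73 CPM in the *ife-2* libraries, against 0.635, 1.03 and 1.47 CPM in the wild type labelled 25 °C (1.46 ± 0.22 (SE), edgeR adjusted p = 1.9e-05). *sqst-1*, the autophagy receptor p62, rose 1.60-fold, at 87.1 ± 5.92 CPM in the *ife-2* libraries and 54.3 ± 5.45 CPM in the wild type, and 9 of 17 autophagy genes fell (52.9%, near the 47.2% of all genes). *tps-1*, trehalose synthase, rose 1.58-fold against the wild type labelled 25 °C, and averaged 49.9 ± 5.89 CPM in the *ife-2* libraries and 51.9 ± 2.07 CPM in the wild type labelled 20 °C (SD, n = 6 each). The V-ATPase, the proton pump of lysosomes, had 1 of 20 subunit genes higher (5%) and 2 lower (10%), both below the 8.84% and 47.2% of all genes.

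The chromosomes differed in the share of genes that rose. On chromosome V 465 of 3260 tested genes rose (14.3%) and on the X chromosome 270 of 2310 (11.7%), against 103 of 2577 (4.00%) on chromosome I and 142 of 2432 (5.84%) on chromosome III. The share that fell ran the other way, at 36.0% on V and 11.8% on X, and 66.0% on I and 62.0% on III. The median log2 fold change was 0.06 on the X chromosome, -0.14 on V (0.62 under TMM) and -1.497 on I. Germ line genes are known to be rare on the X chromosome, and families of chemoreceptors, lectins and P450 enzymes are known to be crowded on V.

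Some of the genes named here overlap an annotated gene on the opposite strand, among them *asm-3*, *dhs-26*, *far-3*, *fat-5*, *sod-3*, *adh-1*, *ctl-2*, *cyp-37B1*, *nhr-74*, *acs-22*, *dgat-2*, *daf-16*, *skn-1*, *ergo-1* and *vit-2*. Whether the counting used strand is not given in the sources used here, so for these genes reads of the neighbor cannot be told apart. The *pud*, *col*, *ctl* and *hsp-16* genes have close copies, for which the same holds between copies.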

How the data were processed

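RNA of whole worms was sequenced on 3 flowcells that carried every library. The authors deposited estimated counts per gene as whole numbers, made with cutadapt, STAR and Salmon on WBcel235 with Ensembl release 90 annotation; tool versions are not given in the sources used here. Of 36 libraries, 12 entered the main comparison and 6 of the wild type labelled 20 °C were set beside it. Gene names came from Ensembl release 115, which matched 45842 of 46093 identifiers.

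Filtering kept every gene that reached 10 counts in 6 or more of the 12 libraries, and these were fitted with edgeR 4.0.16 (R 4.3.3, quasi-likelihood test, group as the only term, Benjamini-Hochberg adjustment). Library scaling was the median ratio over 84 somatic reference genes, so that a change of 0 on the log2 scale means a change equal to that of the reference. Scaling on totals leaves the share gain in, and scaling on all genes moves 0 to the bulk of genes that fell. Calls used an adjusted p below 0.01. DESeq2 1.42.0 and other scalings, filters, thresholds and library sets were tried. The fitting code was tested on simulated data. Depth was 37391231 to 49311828 counts per library, and errors are SD over 6 libraries or SE of the fit.

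Named genes were the 15 largest log2 rises and the 10 largest gains in CPM among called protein-coding genes with at least 10 CPM in the *ife-2* group and no overlap between groups, the 2 largest rises and the largest fall among called genes without overlap in each list, the 8 target genes of the study, *ife-2*, *pgl-1*, *unc-54*, *rab-3*, *ajm-1*, *elt-2*, and the 5 largest falls among protein-coding genes with at least 10 CPM. Further genes in the text were chosen after their values were seen. The gene lists and members were chosen with earlier results of these data known. No nucleotide sequences were analysed here.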

Additional observations from a re-analysis of the deposited data

Results flagged for a closer look

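In 6 of 178 groups of 6 libraries checked, 1 library stood apart from the other 5 by Dixon's gap test, and chance alone gives about 1 in 20. In *ife-2* replicate 3, *pud-2.2* was at 2609 CPM (1210 to 1681 CPM in the other *ife-2* libraries), *pud-3* at 589 CPM (170 to 318 CPM), *pud-4* at 260.3 CPM (92.5 to 149 CPM) and *F45D11.16* at 259 CPM (56.6 to 109 CPM). In *ife-2* replicate 2, *clec-63* was at 1727 CPM (1158 to 1361 CPM in the others) and *ajm-1*, a junction protein of the somatic reference, at 155 CPM (207 to 228 CPM). The part of library quality in these values was not tested.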

How the results depend on the processing

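Of the choices tried, library scaling moved the results most. Against 1435 genes risen beyond the compositional gain with the somatic reference, 6991 were higher under TMM, 5312 with DESeq2 size factors, 5218 on total counts, 8713 under upper-quartile scaling and 714 on the intestinal reference alone. With the wild type labelled 20 °C in place of 25 °C 2264 were higher, 2282 at an adjusted p below 0.05, 452 with at least a 2-fold change, and 782 without replicates 2, 4, 5 and 6 of the wild type (chosen after seeing the data). With 1 library left out, 1118 to 1567 were higher and 5904 to 7539 lower. The gain of 0.46 was 0.202 on epidermal genes, 0.71 on intestinal genes, 0.72 under TMM and 0.72 without replicates 2, 4, 5 and 6 of the wild type, and 0.40 to 0.52 with 1 library left out. Signs turned for *unc-54* under TMM (0.62) and, under upper-quartile scaling, for *unc-54* (1.13), *daf-16* (0.43), *skn-1* (0.17), *nhr-57* (0.11) and *trx-2* (0.012). Against the wild type labelled 20 °C they turned for *adh-1* (-2.47), *hsp-16.41* (-1.76), *lipl-3* (-1.74), *hsp-16.2* (-1.62), *dod-3* (-1.52), *lipl-1* (-0.22), *cyp-37B1* (-0.10), *tps-1* (-0.055), *sago-2* (-0.047) and *lipl-2* (-0.0072). The construction of each scaling accounts for its own shift, and other causes were not tested. All 88 genes followed kept their call with DESeq2 on the reference factors.

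Replicate numbers did not pair the libraries: same-numbered deviations correlated at -0.10 to 0.46, and 2 of 6 *ife-2* libraries correlated best with their own number. With the number as a replicate block, 1704 genes were higher and 7693 lower, and among the 88 genes only *vit-2* (0.74) and *vit-6* (0.64) changed their call. Depth limits genes near the minimum of 10 counts.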

Other observations

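Among 63 families with at least 20 tested protein-coding members, sorted by symbol stem after the values were seen, 26 had a larger share of higher genes than the 8.84% of all genes. They include families already described, such as the C-type lectins, F-box A genes and P450 enzymes, and some that were not. The *math* genes, which encode MATH domain proteins, had 13 of 26 higher and 5 lower. The *pals* genes, several of which respond to intracellular infection, had 12 of 24 higher and 0 lower, and the *cest* genes, carboxylesterases, had 14 of 30 higher and 0 lower, both by edgeR at an adjusted p below 0.01. The transthyretin-related *ttr* genes had 13 of 54 higher and 8 lower, and the *dhs* dehydrogenases 8 of 30 higher and 11 lower. Median log2 fold changes were 0.56 for *math*, 0.57 for *pals* and 0.34 for *cest*, against -0.50 over all genes.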
